A study of Homo sapiens with 9 samples.

Results

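The clustered histone genes are the protein-coding genes of the HIST1, HIST2, HIST3 and HIST4 loci. They were taken from the OVCAR4 gene count table as every row of biotype protein_coding whose gene name starts with HIST1H, HIST2H, HIST3H or HIST4H, which gave 71 of the 58735 genes of the table. Of these, 6 encode the linker histone H1, 17 encode H2A, 18 encode H2B, 15 encode H3 and 15 encode H4. The HIST1 locus on chromosome 6 holds 55 of them, HIST2 and HIST3 on chromosome 1 hold 12 and 3, and HIST4 on chromosome 12 holds 1. Only 33 of the 71 had enough reads to be tested, and the other 38 are accounted for at the levels below.

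H2A, H2B, H3 and H4 form the core particle around which DNA is wound, and H1 binds the linker DNA between particles. Most clustered histone genes are transcribed during S phase, and their main mRNA is unusual in that it carries no poly-A tail: it ends just after a short stem-loop, which is bound by SLBP and cut with the help of the U7 snRNP. Some of the same genes also give longer mRNAs that are cleaved at an ordinary poly-A signal past the stem-loop, and these can be made outside S phase. Libraries made by poly-A selection, as here, retain tailed mRNA, so a read count for a clustered histone gene is a measure of its tailed or carried-over transcripts and not of all its mRNA.

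OVCAR4 is an established human cell line of serous ovarian adenocarcinoma. The cells were transduced with lentivirus for a pLKO.1 scramble shRNA (scr control), shMPZL3 #1 or shMPZL3 #2, and all 3 groups were selected with puromycin for 3 days. Each group had 3 libraries, described by the study as biological replicates; an shRNA lowers the mRNA of its target and leaves the gene in place. Nothing in these data separates a change in the number of cells that express a gene from a change in RNA per cell.

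The first question is whether the annotated transcripts of these genes hold the stem-loop, and what lies past it. A 16-base core of the form GGNNNTTTTNAGNNCC, with N any base, read on the sense strand of the GENCODE 29 transcripts, was found in 31 of the 71 members and in 200 of all 58676 genes with a transcript sequence (0.341%). The pattern was written after the members' sequences had been seen. For 33 members the annotation holds the coding sequence alone, and none of these had a match, so the 31 came from the 38 members with longer models. The sequences below show the core in capitals with 5 bases on each side where the transcript reaches that far. They are shown because they cover the 4 cores shared by more than 1 member and belong to genes described below.
HIST1H2AC: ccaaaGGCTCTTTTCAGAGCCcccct
HIST3H2A: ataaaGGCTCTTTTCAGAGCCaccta
HIST1H2BG: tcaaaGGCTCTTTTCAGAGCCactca
HIST1H2BD: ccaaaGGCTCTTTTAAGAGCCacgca
HIST1H4H: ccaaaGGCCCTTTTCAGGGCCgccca
HIST1H4I: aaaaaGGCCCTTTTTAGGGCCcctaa

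The core of HIST1H2AC, HIST3H2A and HIST1H2BG was the most frequent, in 17 members of the classes H2A, H2B and H3. The core of HIST1H2BD was in 5 members, that of HIST1H4H in 5 and that of HIST1H4I in 3, and all 8 members with either of the last pair encode H4. The remaining match, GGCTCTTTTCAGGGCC, was in HIST1H2AG. In GRCh38 the core of HIST1H2AC lies on the plus strand at chr6:26124669-26124684, in the 3' untranslated part of the mRNA, and that of HIST1H4H on the minus strand at chr6:26285131-26285146.

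Many of these models run far beyond the stem-loop. A protein-coding transcript of HIST1H2AC continues for 1114 bases past the core, one of HIST1H4H for 630, that of HIST1H2BG for 1059 and that of HIST3H2A for 390. A poly-A signal, AATAAA or ATTAAA, stood within the last 40 bases of a transcript of 23 members. The following windows show that signal in capitals near the annotated ends of 4 members that are described below.
HIST1H2AC: tgaggtAATAAAaggtaatgc
HIST1H4H: aaggtgAATAAAatcaggtcactc
HIST3H2A: tctgatATTAAAagtatttatgat
HIST1H2BH: ttttttAATAAAaggtttttttaa

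In HIST1H2AC the signal lies at chr6:26139088-26139093 on the plus strand, with 1 or more introns between it and the stem-loop. HIST1H2BD has 2 annotated transcripts, both with a poly-A signal near the end: one stops 39 bases past the core, and the other, of 789 bases, has no core. The pair with most reads, HIST1H2BK and HIST1H1C, are annotated by their coding sequences of 381 and 642 bases alone, so that the ends of their mRNAs cannot be read from this annotation. Of windows of 50 bases of HIST1H2BK only 25.9% occur in no other gene, so reads of close relatives can be lost from or added to its count.

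The total counts ranged from 15040102 to 27835841 per library, and the clustered histone genes took a very small part of them: 0.0240% to 0.0250% in the controls, 0.0375% to 0.0508% with shMPZL3 #1 and 0.0249% to 0.0302% with shMPZL3 #2. MPZL3, the targeted gene, had normalized counts of 536, 611 and 587 in the controls, 119, 143 and 123 under shMPZL3 #1 and 284, 380 and 271 under shMPZL3 #2, all in the direction of the labels. A normalized count is a read count scaled to the mean effective library size by TMM. The epithelial marker genes KRT7, KRT8 and PAX8 of ovarian carcinoma were well counted, while WT1 had a mean of at most 9.87 normalized counts in any group. Of 7 markers of leukocytes, endothelium and fibroblasts, DCN had no read and CD3E had a mean of at most 1.00, and the 7 together summed to 377 to 448 in the controls, 760 to 1078 under shMPZL3 #1 and 669 to 741 under shMPZL3 #2. COL1A1 and LUM made up most of that sum and both were called higher in knockdown, with log2 fold changes of 1.05 and 1.15 (adjusted p = 0.0150 and 0.0200). Their part in the histone results was not tested.

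The level of the clustered histone genes rested on few members. Over all 9 libraries the 71 members had 59758 counts, of which HIST1H2BK, HIST1H1C, HIST1H2AC and HIST1H2BD held 64.2% and the 12 members with most reads 88.1%. The 38 members that were not tested had 810 counts in all and at most 19 in any library. Among them 8 had no count in any library, and a count of 0 allows up to 3 counts in a library. The untested members summed to 5.45 ± 0.863 CPM (counts relative to the library size after TMM scaling) in the controls, 3.92 ± 0.567 under shMPZL3 #1 and 3.93 ± 1.21 under shMPZL3 #2 (SD, n = 3 each). These include H1 genes such as HIST1H1B and HIST1H1A and most H3 and H4 genes, and it was not detectable at this depth whether single ones differed.

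Levels of different genes can be compared only per length. Among the 12 members highest by this measure in the controls, HIST1H2BK stood first with 124 ± 14.7 CPM per kilobase of gene model (SD, n = 3). HIST1H1C followed with 78.9 ± 5.61 and HIST1H2BD with 31.9 ± 3.26, and the library ranges of these 3 genes did not overlap each other or the next. HIST1H4I, an H4 gene, and HIST1H2AC came next with 14.6 ± 1.60 and 13.3 ± 1.42, and their ranges overlapped. HIST1H2BJ had 8.55 ± 1.32. The ranges of HIST1H2BJ, HIST2H2AC, HIST1H2BC, HIST1H2AE, HIST1H1E and HIST3H2A overlapped from each to the next, so that this stretch of the order is not resolved. A model of the coding sequence alone makes the per-length level of HIST1H2BK and HIST1H1C high if their mRNAs run on past it.

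**Figure D1:**
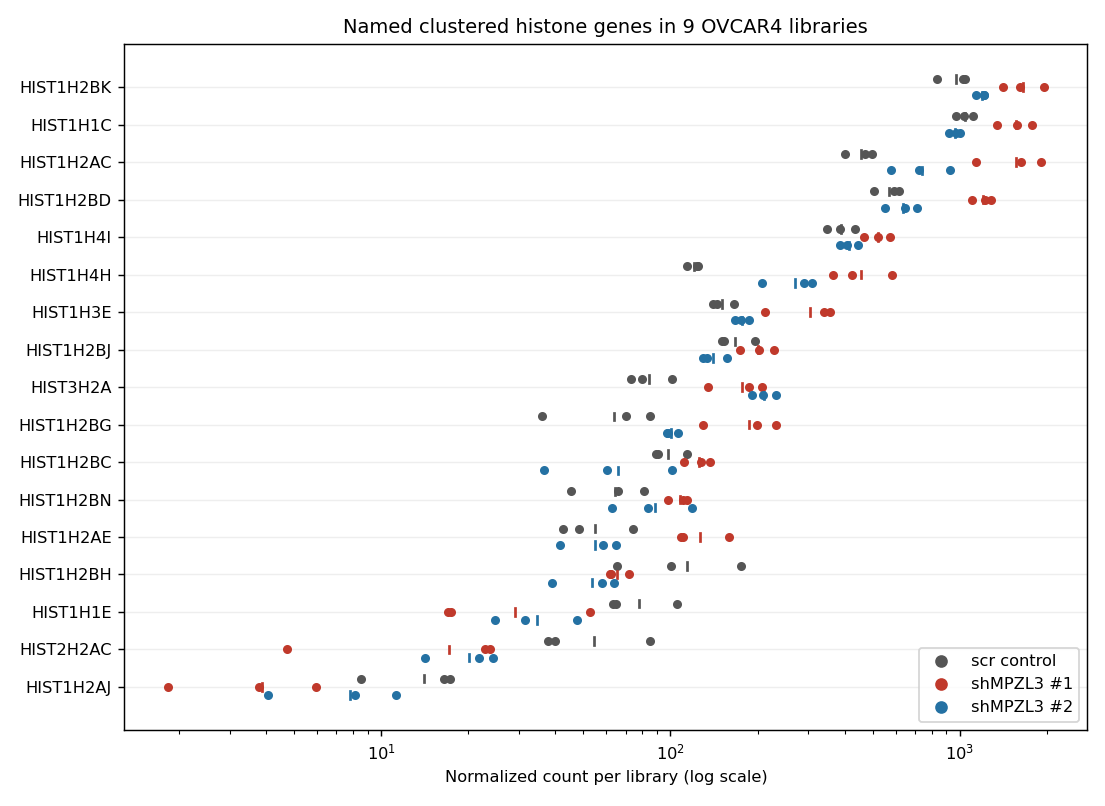
Normalized counts of the 17 named clustered histone genes on a log scale, 1 point per library and a tick at each group mean, for scr control (grey), shMPZL3 #1 (red) and shMPZL3 #2 (blue), 3 libraries each. The shMPZL3 #1 points of HIST1H2AC lie from 1142 to 1917, above the control points from 403 to 498, whereas for HIST1H1E and HIST2H2AC all control points lie above all knockdown points.

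Summed over all 71 members, the clustered histone genes were at 239, 250 and 252 CPM in the scr control libraries, 381, 419 and 500 under shMPZL3 #1 and 251, 303 and 277 under shMPZL3 #2. All shMPZL3 #1 libraries lay above all others, while the lowest shMPZL3 #2 library lay within the control range. The mean sums were 247 ± 6.59, 433 ± 60.9 and 277 ± 25.6 (SD, n = 3 each), so that shMPZL3 #1 was at 1.76 times and shMPZL3 #2 at 1.12 times the control. A sum over members was given no test. Of the difference of 187 CPM between shMPZL3 #1 and control, HIST1H2BK, HIST1H1C, HIST1H2AC and HIST1H2BD made up 77.3%, with HIST1H2AC alone giving 28.9%.

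The ratio to control varied between the classes, though no test was made between them. H2A genes were at 36.5, 37.6 and 40.2 CPM in control, 74.1, 100 and 120 under shMPZL3 #1 and 45.6, 67.4 and 54.1 under shMPZL3 #2, so that no knockdown library overlapped a control library. H4 genes were at 26.2, 28.6 and 31.1 CPM in control, 43.5, 49.4 and 61.0 under shMPZL3 #1 and 31.7, 39.8 and 38.6 under shMPZL3 #2, again without overlap. Single genes held much of both gains. HIST1H2AC alone was 53.8 CPM above control with shMPZL3 #1 and 13.9 with shMPZL3 #2, and HIST1H4H 16.4 and 7.20. With shMPZL3 #2, 5 of the 8 tested H2A genes had a log2 fold change below 0 and 3 above it. Of the 5 tested H4 genes, 1 was below and 4 above. H2B genes, which held 44.5% of the member CPM in control, had 110 ± 8.21, 184 ± 19.9 and 120 ± 11.1 CPM. H1 genes had 55.4 ± 4.76, 78.6 ± 9.82 and 49.5 ± 1.17 CPM, so that the shMPZL3 #2 mean was at 0.893 times the control. H3 genes were the lowest class, with 14.7 ± 1.07, 21.8 ± 5.72 and 15.6 ± 0.528 CPM, and the lowest shMPZL3 #1 library, at 15.2, lay among the controls.

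**Figure D2:**
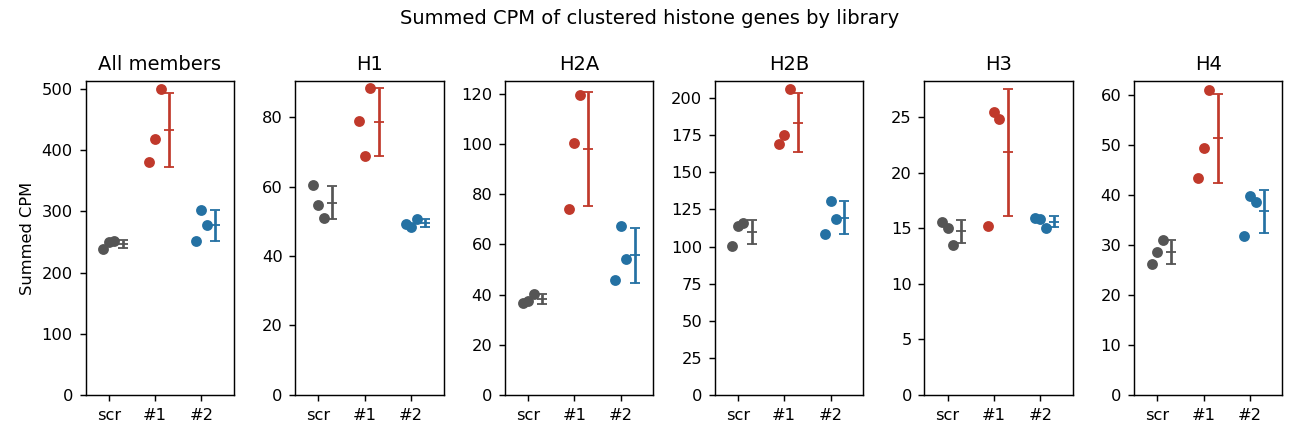
Summed CPM of all 71 clustered histone genes and of each class, 1 point per library, with the mean and SD beside the points, for scr control (scr), shMPZL3 #1 (#1) and shMPZL3 #2 (#2). The shMPZL3 #1 points for all members lie from 381 to 500 CPM and the control points from 239 to 252, and each panel has its own axis that starts at 0.

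In the grouped comparison, the 6 knockdown libraries against the 3 scr control libraries, 5 of the 33 tested members were higher and 3 were lower at an adjusted p under 0.05 (edgeR's quasi-likelihood test with Benjamini-Hochberg adjustment over all 16928 genes tested). Those are 15.2% and 9.09% of the tested members, beside 9.36% and 6.4% of all genes tested. The members higher were HIST1H4H, HIST1H2AC, HIST3H2A, HIST1H2BG and HIST1H2BK, and those lower were HIST2H2AC, HIST1H1E and HIST1H2BH. The median log2 fold change of the tested members was 0.19, beside 0.02 for all genes tested, and single values ran from -1.53 to 1.58. All 6 knockdown libraries lay above all controls for 6 of the 33 and below them for 3, where 11.8% and 11% of all genes tested did so. The calls rested on the control libraries: without scr control replicate 1 there were 2 members higher and 0 lower, without replicate 2 there were 2 and 1, and without replicate 3 there were 2 and 0. Without shMPZL3 #1 replicate 1 the counts were 3 and 1. Over all genes 2667 were called with all libraries, 1584 higher and 1083 lower, and 625, 962 and 1238 without control replicate 1, 2 or 3.

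HIST1H4H and HIST3H2A were called higher in the grouped comparison whichever of the 9 libraries was left out. HIST1H4H encodes the core histone H4 (ENSG00000158406, chr6:26277609-26285638, GRCh38). It had normalized counts of 125, 124 and 114 in the controls, 364, 424 and 582 under shMPZL3 #1 and 208, 289 and 310 under shMPZL3 #2. Every knockdown library was above every control, and the controls stood close together. The log2 fold change was 1.58 ± 0.27 (SE, adjusted p = 0.00267), and a two-sided exact permutation test over libraries gave p = 0.0119, the smallest that 6 against 3 libraries allow.

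HIST3H2A, an H2A gene of the small HIST3 locus (ENSG00000181218, chr1:228456979-228457873), was higher with both shRNAs. Its normalized counts were 73.1, 101 and 79.7 in the controls, 135, 187 and 207 under shMPZL3 #1 and 191, 231 and 208 under shMPZL3 #2. The groups did not overlap with control, and the log2 fold change was 1.18 ± 0.20 (adjusted p = 0.00233, exact permutation p = 0.0119). It was the sole member called higher with either shRNA whose value was larger with shMPZL3 #2, at 1.30 against 1.04, and the test between the shRNAs did not separate them (0.26 ± 0.19, adjusted p = 0.398).

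HIST1H2AC encodes H2A (ENSG00000180573, chr6:26124145-26139116) and had the largest gain in reads. The normalized counts were 403, 470 and 498 in the controls, 1142, 1628 and 1917 under shMPZL3 #1 and 579, 923 and 726 under shMPZL3 #2. The knockdown libraries were all above control and those of shMPZL3 #1 all above those of shMPZL3 #2. The grouped log2 fold change was 1.33 ± 0.32 (adjusted p = 0.0160), and the call was lost when control replicate 1, 2 or 3 was left out (1.25, 1.35 and 1.39, with adjusted p = 0.0971, 0.0645 and 0.0518).

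HIST1H2BG and HIST1H2BK encode H2B. HIST1H2BG had 35.9, 84.9 and 70.1 normalized counts in the controls, 130, 200 and 231 under shMPZL3 #1 and 97.2, 98.4 and 106 under shMPZL3 #2. Its log2 fold change was 1.16 ± 0.35 (adjusted p = 0.0380), with control replicate 1 lying lowest. The call was lost without any 1 of the control libraries or of the shMPZL3 #1 libraries, where the value ran from 0.88 (adjusted p = 0.191, without control replicate 1) to 1.44. HIST1H2BK, the member with most reads, had 836, 1041 and 1030 in the controls, 1620, 1413 and 1952 under shMPZL3 #1 and 1138, 1216 and 1216 under shMPZL3 #2. It showed a smaller log2 fold change of 0.56 ± 0.16 (adjusted p = 0.0365), which was lost without any 1 control library or shMPZL3 #1 replicate 1, at 0.45 (adjusted p = 0.198) without control replicate 1.

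The members that were lower had fewer reads. HIST1H1E encodes a linker histone (ENSG00000168298, chr6:26156354-26157107) and had 105, 63.2 and 64.6 normalized counts in the controls, 17.4, 52.7 and 17.0 under shMPZL3 #1 and 31.4, 47.7 and 24.8 under shMPZL3 #2. All knockdown libraries were below control, with a log2 fold change of -1.29 ± 0.36 (adjusted p = 0.0304). HIST2H2AC, an H2A gene of HIST2 (ENSG00000184260, chr1:149886975-149887364), had 85.1, 37.7 and 39.9 in the controls, 23.8, 22.9 and 4.73 under shMPZL3 #1 and 14.2, 24.3 and 21.8 under shMPZL3 #2, a log2 fold change of -1.53 ± 0.42 (adjusted p = 0.0284). HIST1H2BH, an H2B gene, had 176, 65.1 and 100 in the controls, 62.2, 61.6 and 71.9 under shMPZL3 #1 and 63.8, 57.8 and 39.1 under shMPZL3 #2, so that the groups overlapped (-0.93 ± 0.28, adjusted p = 0.0403). For all 3 genes control replicate 1 was the highest library. Without it the values were -1.02, -1.06 and -0.48 and the adjusted p 0.184, 0.222 and 0.344. Leaving out control replicate 3 also ended the 3 calls, with adjusted p = 0.0598, 0.0502 and 0.0809, as control replicate 2 did for HIST1H1E and HIST2H2AC (adjusted p = 0.0678 and 0.0527). Among knockdown libraries, HIST1H1E was no longer called without shMPZL3 #1 replicate 1 or shMPZL3 #2 replicate 3 (adjusted p = 0.0540 and 0.0506), and HIST1H2BH without shMPZL3 #1 replicate 1 or 2 or shMPZL3 #2 replicate 2 or 3 (adjusted p = 0.0668, 0.0538, 0.0510 and 0.0665).

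With shMPZL3 #1 compared with control in the 3-group fit, 11 of the 33 tested members were higher and 3 lower, which is 33.3% and 9.09% beside 16.8% and 15.3% of all genes tested. The median log2 fold change of the tested members was 0.28, beside 0.01 for all genes. Rising members came from all 5 classes: HIST1H1C of H1, HIST1H2AC, HIST1H2AE and HIST3H2A of H2A, HIST1H2BD, HIST1H2BG, HIST1H2BK and HIST1H2BN of H2B, HIST1H3E of H3, and HIST1H4H and HIST1H4I of H4. The largest rises were those of HIST1H4H at 1.91 ± 0.20 (adjusted p = 6.09e-06) and HIST1H2AC at 1.77 ± 0.18 (adjusted p = 6.09e-06), followed by HIST1H2BG at 1.53 ± 0.27 (adjusted p = 0.000442). Class medians over the tested members were -0.41 for the 2 H1 genes, 0.23 for the 8 H2A genes, 0.28 for the 13 H2B genes, -0.43 for the 5 H3 genes and 0.42 for the 5 H4 genes. Leaving out 1 library moved the H2A median between -0.03 and 0.44 and the H3 median between -0.47 and 0.34, the latter without control replicate 1.

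Within H1, H2B and H3 single members differed widely. HIST1H1C, which encodes a linker histone made outside S phase as well, had 1116, 1037 and 968 normalized counts in the controls and 1583, 1350 and 1782 under shMPZL3 #1, a log2 fold change of 0.60 ± 0.11 (adjusted p = 0.000669). HIST1H1E, the other tested H1 gene, fell by 1.42 on the log2 scale (adjusted p = 0.0143). HIST1H2BD had 504, 591 and 615 in the controls and 1100, 1222 and 1282 under shMPZL3 #1, a rise of 1.08 ± 0.12 (adjusted p = 1.32e-05). It overlaps the antisense gene AL353759.1, which had 107 counts in all, and without strand the reads of the 2 cannot be told apart where they overlap. HIST1H3E, the most counted H3 gene, had 145, 141 and 166 in the controls and 211, 357 and 340 under shMPZL3 #1, a rise of 1.01 ± 0.19 (adjusted p = 0.000719). The 4 other tested H3 genes were not called, and 3 of these had values below 0.

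Smaller or less certain changes with shMPZL3 #1 were those of HIST1H4I, HIST1H2BN and HIST1H2AJ. HIST1H4I had 348, 385 and 433 normalized counts in the controls and 469, 521 and 575 under shMPZL3 #1 (0.42 ± 0.13, adjusted p = 0.0201), and the call was lost without control replicate 1 or 2 or shMPZL3 #1 replicate 3 (adjusted p = 0.101, 0.0703 and 0.0896). HIST1H2BN rose by 0.75 ± 0.26 (adjusted p = 0.0385), lost without control replicate 1 or 2 or shMPZL3 #1 replicate 2 or 3 (adjusted p from 0.0858 to 0.165). Its annotated span overlaps HIST1H2AL, and reads where they overlap cannot be assigned. HIST1H2AJ, with 17.3, 8.49 and 16.5 in the controls and 1.83, 5.96 and 3.78 under shMPZL3 #1, was at -1.82 ± 0.67 (adjusted p = 0.0471), and no library could be left out without losing the call (adjusted p from 0.0536 to 0.157). Only 16.3% of its 50-base windows occur in no other gene, so its count may share reads with near-identical copies. HIST2H2AC was at -1.65 ± 0.49 (adjusted p = 0.0173). HIST1H1E and HIST2H2AC were also lost without control replicate 1 (adjusted p = 0.0780 and 0.131) or shMPZL3 #1 replicate 3 (adjusted p = 0.0706 and 0.0636), and HIST1H1E without shMPZL3 #1 replicate 1 (adjusted p = 0.0630). The number of members lower was thus 0 without control replicate 1 or shMPZL3 #1 replicate 3. Exact permutation tests of 3 against 3 libraries cannot go below 0.1, which is the value for each of the 14 members called.

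**Figure D3:**
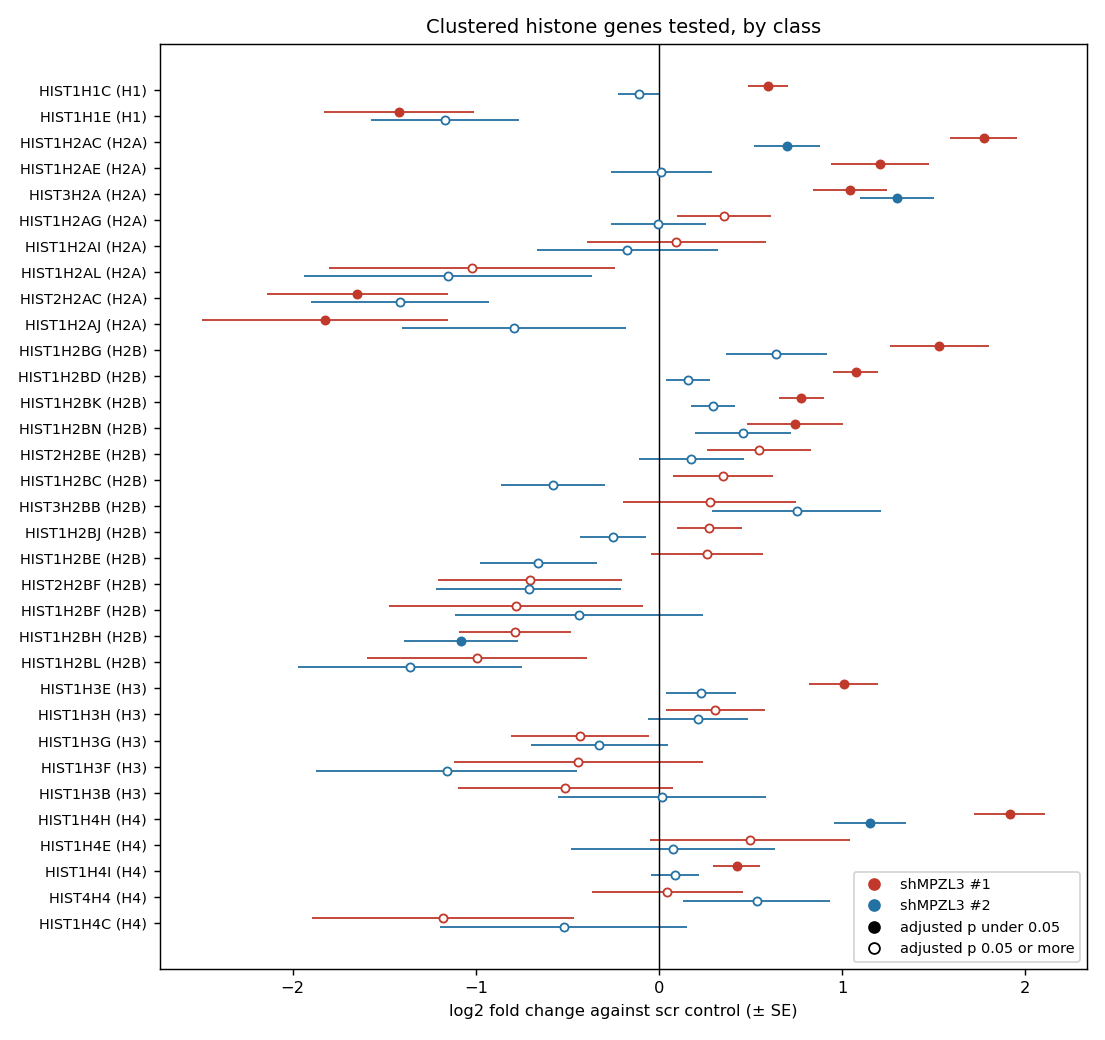
Log2 fold change against scr control with its SE for the 33 tested clustered histone genes, ordered by class and by the shMPZL3 #1 value, for shMPZL3 #1 (red) and shMPZL3 #2 (blue), filled where the adjusted p is under 0.05. With shMPZL3 #1 14 points are filled and with shMPZL3 #2 4 are, and both shRNAs are compared with the same 3 control libraries.

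With shMPZL3 #2 against scr control, 3 of the 33 tested members were higher and 1 lower, which is 9.09% and 3.03% beside 9.36% and 5.8% of all genes tested. The median was -0.00426 for the tested members and 0.00343 for all genes. The members higher were HIST3H2A (1.30 ± 0.20, adjusted p = 0.000303), HIST1H4H (1.15 ± 0.20, adjusted p = 0.000676) and HIST1H2AC (0.70 ± 0.18, adjusted p = 0.0146), and all 3 had also been higher with shMPZL3 #1 against the same controls. HIST1H2AC was no longer called without control replicate 1 or shMPZL3 #2 replicate 2 (0.61 and 0.51, adjusted p = 0.0769 and 0.0503). HIST1H2BH was lower, at -1.08 ± 0.31 (adjusted p = 0.0271), which was lost without control replicate 1 (-0.63, adjusted p = 0.221) or shMPZL3 #2 replicate 3 (-0.87, adjusted p = 0.138). HIST1H1E and HIST2H2AC had values of -1.17 and -1.41 that missed the threshold (adjusted p = 0.0605 and 0.0587), and the number of members lower was 3 with DESeq2. That number was also 3 without shMPZL3 #1 replicate 3 or shMPZL3 #2 replicate 2, 2 without shMPZL3 #1 replicate 2, and 0 without control replicate 1 or shMPZL3 #2 replicate 3. Class medians were -0.64 for H1, -0.09 for H2A, -0.25 for H2B, 0.02 for H3 and 0.09 for H4.

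The difference between the shRNAs was tested itself. Of the 33 members, 9 were lower with shMPZL3 #2 than with shMPZL3 #1 and 0 were higher, which is 27.3% beside 7.56% lower and 7.56% higher of all genes tested, and at an unadjusted p under 0.05 there were also 0 higher. DESeq2 gave 11 lower and 0 higher. The 9 were HIST1H1C, HIST1H2AC, HIST1H2AE, HIST1H2BC, HIST1H2BD, HIST1H2BG, HIST1H2BK, HIST1H3E and HIST1H4H, all of the HIST1 locus, as were 27 of the 33 tested. Of the 11 members higher with shMPZL3 #1 than with control, 8 were among these 9. Both comparisons use the same shMPZL3 #1 libraries, so this overlap is not independent support. HIST1H2BD showed the lowest adjusted p, with 550, 713 and 646 normalized counts with shMPZL3 #2, a difference of -0.92 ± 0.12 (adjusted p = 9.96e-05) and a value against control of 0.16 ± 0.12 (adjusted p = 0.420). HIST1H1C was at 972, 920 and 999 under shMPZL3 #2, which overlapped control, and its difference was -0.71 ± 0.11 (adjusted p = 0.000459). HIST1H2AE, an H2A gene, had the largest difference of the 9, -1.20 ± 0.26 (adjusted p = 0.00534). The number lower fell to 5 without shMPZL3 #1 replicate 3, the library with the highest member sum. Without it HIST1H2BK, HIST1H4H, HIST1H2BG and HIST1H2BC were no longer called (adjusted p = 0.0719, 0.0633, 0.124 and 0.0787). HIST1H2BC was also lost without shMPZL3 #1 replicate 2 or shMPZL3 #2 replicate 1 or 3 (adjusted p from 0.0787 to 0.112), and HIST1H2BG without shMPZL3 #1 replicate 2 or any 1 of the shMPZL3 #2 libraries (adjusted p from 0.0510 to 0.124).

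MPZL3 itself was lower with shMPZL3 #1 than with shMPZL3 #2, with log2 fold changes against control of -2.17 and -0.89 and a difference of 1.28 (adjusted p = 5.72e-05). The part of that gap in the difference between the shRNAs at the histone genes was not tested.

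Many clustered histone genes lie in head-to-head pairs of an H2A and an H2B gene, which can share a promoter region. Starts of members on opposite strands lay under 1000 bases apart in 12 pairs, and both members were tested in 6 of these. HIST1H2BG and HIST1H2AE, whose starts are 283 bases apart, both rose with shMPZL3 #1, by 1.53 and 1.21 (adjusted p = 0.000442 and 0.00248). HIST1H2AE had 42.5, 48.1 and 74.2 normalized counts in the controls and 109, 110 and 160 under shMPZL3 #1. In 3 of the other pairs only 1 member was called. HIST1H2AC rose by 1.77 under shMPZL3 #1 while HIST1H2BC, 219 bases away, was at 0.35 (adjusted p = 0.359), with 89.1, 114 and 90.7 normalized counts in the controls and 112, 137 and 128 under shMPZL3 #1. HIST2H2AC was lower, at -1.65, while its neighbour HIST2H2BE was at 0.55 (adjusted p = 0.153). HIST3H2A rose by 1.04 while HIST3H2BB was at 0.28 (adjusted p = 0.697). The difference within a pair was not tested.

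The promoter windows of the H2A genes HIST1H2AC and HIST1H2AE of those pairs are shown with 3 motifs in capitals on either strand, the TATA box TATAAA, the CCAAT box and the octamer ATTTGCAT. They are windows of 300 bases of GRCh38.p14 from RefSeq, 250 before and 50 from the annotated start, on the strand of the gene, here plus, at chr6:26123922-26124221 for HIST1H2AC and chr6:26216671-26216970 for HIST1H2AE.
HIST1H2AC: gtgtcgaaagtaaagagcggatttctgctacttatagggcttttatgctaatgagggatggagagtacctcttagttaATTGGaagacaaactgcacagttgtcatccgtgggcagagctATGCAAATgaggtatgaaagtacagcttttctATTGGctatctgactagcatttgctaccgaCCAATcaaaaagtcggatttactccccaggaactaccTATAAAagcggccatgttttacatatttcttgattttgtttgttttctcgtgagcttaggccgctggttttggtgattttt
HIST1H2AE: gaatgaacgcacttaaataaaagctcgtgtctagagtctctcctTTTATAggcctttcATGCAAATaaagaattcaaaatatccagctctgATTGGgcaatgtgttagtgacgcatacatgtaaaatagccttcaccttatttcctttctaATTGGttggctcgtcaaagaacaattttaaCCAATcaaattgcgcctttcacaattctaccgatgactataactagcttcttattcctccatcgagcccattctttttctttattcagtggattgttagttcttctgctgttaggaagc

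Of the 71 members, 66 matched a RefSeq promoter. TATAAA was in 66.7% of them and in 11.5% of all 35116 promoters, CCAAT in 84.8% and 34.6%, and ATTTGCAT in 39.4% and 1.77%. The classes differed in these letters. CCAAT was in every matched promoter of the H1, H2A, H2B and H3 genes and in 23.1% of those of H4. ATTTGCAT was in 68.8% of H2A and 77.8% of H2B promoters, in 7.69% of H3 and in none of H1 or H4. The H3 match was that of HIST1H3D, whose window is the same as that of the H2A gene HIST1H2AD. Windows of head-to-head pairs overlap, so the same stretch can count for both an H2A and an H2B gene. HIST1H2AC and HIST1H2AE hold all 3 motifs, counting either strand. The sole TATAAA match of HIST1H2AE is on the opposite strand, in a stretch that also lies in the window of its neighbour HIST1H2BG. There it reads TATAAA on the strand of HIST1H2BG. A match is a match of letters alone.

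By their annotated ends, the members fell into 3 sets. The 23 with a poly-A signal near an end, such as HIST1H2AC, HIST1H4H and HIST3H2A, had a median of 652 counts over the 9 libraries. The 33 with a coding sequence alone had a median of 25, and the 15 with longer models but no such signal had 106. These counts are not per length, and the coding sequences alone are mostly shorter models, so the count medians do not compare levels. The 33 held 39.5% of all member counts even so, mostly in HIST1H2BK (11679 counts) and HIST1H1C (10810 counts). With shMPZL3 #1, 6 of the 16 tested members with a signal were higher and 0 lower by edgeR, with a median of 0.43, beside 16.8% higher and 15.3% lower of all genes tested. Of the 7 tested members with a coding sequence alone 2 were higher and 2 lower, with a median of -0.51, and of the 10 others 3 were higher and 1 lower, with a median of 0.07. With shMPZL3 #2 the medians were 0.12, -0.79 and -0.08 in that order. These sets differ in the length of their models, in counts and in the number tested. They were made after the values had been seen, and no test was made between them.

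**Figure D4:**
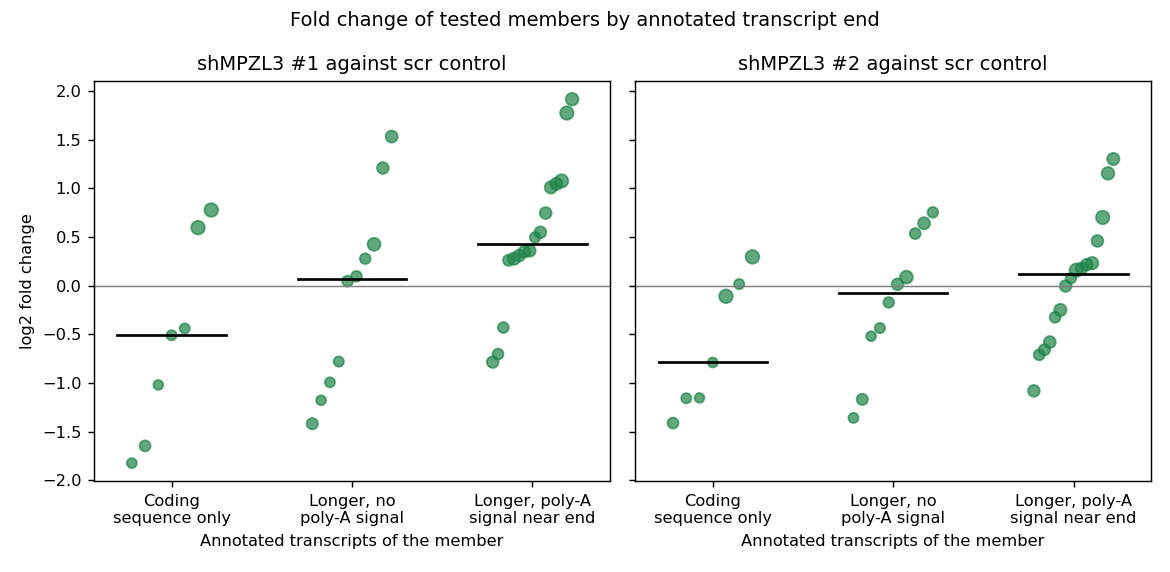
Log2 fold change against scr control of the 33 tested clustered histone genes by the end of their annotated transcripts, for shMPZL3 #1 on the left and shMPZL3 #2 on the right, with 1 point per gene spread sideways in order of value, point size growing with the log of its total counts and a bar at each median. With shMPZL3 #1 the medians are -0.51, 0.07 and 0.43 from left to right, and in the set of coding sequences alone the 2 largest points, HIST1H2BK and HIST1H1C, are the highest.

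RNAs that carry no poly-A tail were looked at as a measure of what passed the selection. Genes of the biotype snRNA summed to 25.2 to 26.8 CPM in the controls, 18.4 to 21.4 under shMPZL3 #1 and 19.9 to 21.8 under shMPZL3 #2, and snoRNA genes to 26.5 to 31.7, 17.5 to 18.01 and 21.3 to 26.5. Both sums were thus lower in every knockdown library than in any control. The misc_RNA sum ran the other way, from 105 to 142 CPM in scr control to 137 to 275 and 132 to 204. A large part of that sum was RN7SL2 of the signal recognition particle. RN7SL2 had 1275, 1652 and 2002 normalized counts in the controls, 2110, 1952 and 4771 under shMPZL3 #1 and 3351, 1918 and 3399 under shMPZL3 #2. Its grouped log2 fold change was 0.83 (adjusted p = 0.0549). The other misc_RNA genes were not summed apart, so the direction is that of the sum alone. RN7SK, RN7SL1, RMRP and RPPH1 were listed at 0 in every library. The part of these RNAs in the histone results was not tested.

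The histone genes listed as replication-independent mostly give mRNAs with ordinary tails. Of 12 listed genes 11 were tested, and in the grouped comparison H2AFJ was higher (0.49, adjusted p = 0.0273) while H2AFZ (-0.56, adjusted p = 0.0436), H2AFV (-0.35, adjusted p = 0.0250) and CENPA (-0.54, adjusted p = 0.0298) were lower. H2AFJ and H2AFZ encode variants of H2A, and CENPA encodes the H3 variant of centromeres. With shMPZL3 #1 1 was higher and 5 lower, with a median of -0.23, where 16.8% of all genes tested were higher and 15.3% lower. With shMPZL3 #2 1 was higher and 0 lower by edgeR, with a median of -0.08, beside 9.36% and 5.8% of all genes. H2AFZ had 8158 mean normalized counts in the controls, 4323 under shMPZL3 #1 and 6717 under shMPZL3 #2.

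Another list holds the genes that transcribe, process and degrade histone mRNA. Of 18 listed, all tested, none was higher and 4 were lower in the grouped comparison: CPSF2 (-0.36, adjusted p = 0.0308), a subunit of the cleavage complex, NPAT (-0.36, adjusted p = 0.0457), the coactivator of histone genes, and NCBP1 and NCBP2 (-0.32 and -0.33, adjusted p = 0.0422 and 0.0472), which form the cap-binding complex. SLBP had 1530 ± 39.3 normalized counts in the controls, 1196 ± 92.6 under shMPZL3 #1 and 1343 ± 62.3 under shMPZL3 #2 (SD, n = 3 each), with values of -0.36 and -0.19 (adjusted p = 0.00940 and 0.201). The list's median was -0.28 under shMPZL3 #1, where 7 were lower, and -0.15 under shMPZL3 #2, where 1 was lower. Of all genes tested, 6.4% were lower in the grouped comparison, 15.3% with shMPZL3 #1 and 5.8% with shMPZL3 #2. Of 9 histone chaperone genes, NASP (-0.39, adjusted p = 0.0379) and HAT1 (-0.62, adjusted p = 0.00779), which handle newly made H3 and H4, were lower in the grouped comparison, and 7 were lower with shMPZL3 #1 and 1 under shMPZL3 #2, beside those same shares of all genes. None of the 9 was higher in these comparisons by edgeR.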

How the data were processed

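The authors selected poly-A RNA with oligo-dT beads, made libraries that do not keep the strand, sequenced them on an Illumina NovaSeq, aligned the reads and deposited raw counts per gene for each library. The submitters' processing notes name HISAT2 2.0.5, featureCounts 1.5.0-p3 and hg38. The annotation release and the treatment of reads that match several genes are not given in the sources used here. All 58735 genes of the table match GENCODE release 29 on GRCh38 in identifier and position, and all 71 members in name too.

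Counts were analysed with edgeR 4.0.16 and limma 3.58.1 in R 4.3.3. Genes were filtered with filterByExpr, which left 16928, library sizes were scaled by TMM, and quasi-likelihood tests were two-sided with Benjamini-Hochberg adjustment over all genes tested. The grouped comparison was fitted with the knockdown libraries as 1 group, and the others with 3 groups. DESeq2 1.42.0 served as an alternative. A fold change is edgeR's log2 estimate and its SE is the estimate divided by the square root of F. Exact permutation tests used log2 CPM with a prior count of 2. The tests were checked on simulated counts. No column of the table was left unassigned to a library.

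Named genes are MPZL3, the 12 members with the highest mean scaled count, the highest of each class and up to 10 members called in each direction of each comparison, which gave 17 members. Of other lists, those called in the grouped comparison and those with the highest counts were named, up to 6 a list. HIST1H1A, HIST1H1B, HIST1H2AD, HIST1H2AG, HIST1H2AL, HIST1H3D, HIST2H2BE and HIST3H2BB were named after their values were seen. The members and lists were chosen with earlier results of these data known. Differences at members with few counts are less precise, and intervals for reads cover counting error only. ZCCHC6 and ZCCHC11 were matched as TUT7 and TUT4 through RefSeq synonyms. Alternatives were a replicate block, scaling by RLE or by upper quartiles, a correction for gene length, at least 10 counts in every library or no filter at all, the mean of the 2 shRNA effects, and leaving out each of the 9 libraries.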

Additional observations from a re-analysis of the deposited data

Results flagged for a closer look

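In the 6 knockdown libraries of each of the 17 named members, the highest and lowest values of log2 CPM were compared with the rest by Dixon's ratio, the gap to the nearest library over the whole range, against its 95% critical value for 6 samples. Chance gives about 1 flag in 20 groups if the 6 libraries share 1 level, and 2 were found. The 6 pool 2 shRNAs, which differed at 9 members, so that rate is only a guide. HIST1H2BH in shMPZL3 #2 replicate 3 was low at 39.1 normalized counts (ratio 0.640), and HIST2H2AC in shMPZL3 #1 replicate 3 was low at 4.73 (ratio 0.642).

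The 2 shRNAs differed in their effect on 9 members by the test of shMPZL3 #2 against shMPZL3 #1. The log2 differences were -0.48 for HIST1H2BK (adjusted p = 0.0129), -0.71 for HIST1H1C (adjusted p = 0.000459), -1.07 for HIST1H2AC (adjusted p = 0.000611), -0.92 for HIST1H2BD (adjusted p = 9.96e-05), -0.76 for HIST1H4H (adjusted p = 0.00938), -0.78 for HIST1H3E (adjusted p = 0.00920), -0.89 for HIST1H2BG (adjusted p = 0.0258), -0.93 for HIST1H2BC (adjusted p = 0.0316) and -1.20 for HIST1H2AE (adjusted p = 0.00534). Every one was lower with shMPZL3 #2.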

How the results depend on the processing

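Of 35 calls of named members over the 4 comparisons, 18 held under every alternative, 17 were lost under at least 1, 14 of these only where a library was left out, and 0 reversed while called. Leaving out scr control replicate 1 ended 13.

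Genes called, with all libraries and over the 9 runs without 1 library each, were 2667 (625 to 3187) for the grouped comparison, 5423 (3696 to 5816) for shMPZL3 #1, 2567 (1366 to 3055) for shMPZL3 #2 and 2559 (1469 to 2953) between the shRNAs. In these runs 2 to 6 members were higher and 0 to 4 lower in the grouped comparison, 9 to 12 higher and 0 to 4 lower for shMPZL3 #1, 2 to 3 higher and 0 to 3 lower for shMPZL3 #2, and 5 to 11 lower between the shRNAs. Without control replicate 1 or 2, shMPZL3 #2 had 1398 and 1579 genes called, and without its replicate 3 1366. Between the shRNAs the number was 1584 without shMPZL3 #1 replicate 3, and 1647 and 1469 without shMPZL3 #2 replicate 1 and 3.

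Medians over all tested members ran from 0.017 to 0.28 (grouped), 0.17 to 0.39 (shMPZL3 #1), -0.18 to 0.0095 (shMPZL3 #2) and -0.45 to -0.21 (between the shRNAs). For the grouped comparison the class medians ran from -0.61 to -0.34 for H1, -0.06 to 0.21 for H2A, -0.066 to 0.16 for H2B, -0.34 to 0.12 for H3 and 0.02 to 0.59 for H4. For shMPZL3 #1 they ran from -0.73 to -0.25 for H1, -0.03 to 0.44 for H2A, 0.27 to 0.42 for H2B, -0.47 to 0.34 for H3 and 0.22 to 0.52 for H4. For shMPZL3 #2 they ran from -0.77 to -0.48 for H1, -0.42 to 0.051 for H2A, -0.34 to 0.042 for H2B, -0.17 to 0.18 for H3 and 0.0075 to 0.47 for H4. Between the shRNAs they ran from -0.37 to 0.094 for H1, -0.61 to 0.089 for H2A, -0.55 to -0.35 for H2B, -0.35 to 0.15 for H3 and -0.42 to 0.04 for H4.

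With at least 10 counts in every library, which leaves fewer members tested, the median was 0.52 over all members for shMPZL3 #1, where 1 member was lower. The class medians became 0.76 for H2A, 0.24 for H2B, 0.30 for H3 and 0.95 for H4 in the grouped comparison, 1.08, 0.49, 0.35 and 1.21 for shMPZL3 #1, -0.027 for H2B and 0.64 for H4 for shMPZL3 #2, and -0.52 for H2B between the shRNAs. The mean of the 2 shRNA effects called 4677 genes in the grouped comparison. DESeq2 and the test with no filter each called 3 members lower for shMPZL3 #2. The cause of these changes was not tested.

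Values that changed sign belonged to members that were not called in the comparison concerned. Without 1 library each, the grouped value ran from -0.066 to 0.16 for HIST1H2BJ and from -0.17 to 0.12 for HIST1H2BC, the shMPZL3 #2 value from -0.14 to 0.27 for HIST1H2AE, and the value between the shRNAs from -0.042 to 0.99 for HIST1H1E and from -0.21 to 0.54 for HIST2H2AC.

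Groups share replicate numbers in the labels. Residuals of libraries with the same number correlated at -0.00143 to 0.218, and the main tests took them to share only a number. Between the 2 shRNAs these were 0.137, 0.218 and 0.0966, against -0.147 to 0.00376 for libraries of different number, and each of the 6 libraries correlated best with its own number. Against both shRNAs this held for control replicates 1 and 3 but not for control replicate 2. It is a hint from the data, not the design. With the replicate block, 4 members were higher and 2 lower in the grouped comparison, 5 higher and 3 lower for shMPZL3 #2 and 12 lower between the shRNAs, and the genes called numbered 2424, 6355, 3680 and 3823 in the order above. The block ended the grouped calls of HIST1H2BK (adjusted p = 0.0510) and HIST1H2BH (adjusted p = 0.0608) and the shMPZL3 #1 call of HIST1H2AJ. That call of HIST1H2AJ was also lost with upper-quartile scaling, no filter or the gene length correction (adjusted p = 0.0512, 0.119 and 0.0565).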

Other observations

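The table holds 19 further rows of the HIST loci that are pseudogenes and no members. The pseudogenes HIST2H2BC and HIST2H2BD passed the filter, with mean normalized counts of 91.8 and 47.1 in scr control, 96.3 and 32.7 with shMPZL3 #1 and 83.7 and 38.0 with shMPZL3 #2, and neither was called in the grouped comparison (log2 fold changes of -0.03 and -0.41, adjusted p = 0.941 and 0.359).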
